A study of Mus musculus with 2 samples.

Results

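The endothelin system comprises 3 peptide ligands (Edn1, Edn2 and Edn3), 2 receptors (Ednra and Ednrb) and the converting enzyme Ece1, and these 6 genes were followed here in mouse glomeruli. Members were all probe sets that the platform annotation assigns to exactly 1 gene symbol, that symbol being one of the 6. They amounted to 12 of the 45101 probe sets on the array, for 5 of 18193 named genes. Ednra had no such probe set and is not analysed here. Each gene was represented by its brightest probe set, and every other probe set is given beside it.

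Glomeruli were obtained by graded sieving from kidneys of male C57BL/6J mice aged 2 months, and total RNA was labelled for a 1-colour Affymetrix array. All mice carried floxed alleles of GC-A, the guanylyl cyclase receptor of natriuretic peptides, and of p38, a stress-activated kinase (GC-A fl/fl p38 fl/fl). The double knockout carried Nephrin-Cre (Cre/+), in which the nephrin promoter directs Cre to podocytes, and the floxed control was Nephrin-Cre (+/+), read here as mice without the Cre allele. Both genotypes were fed 6% NaCl and were infused with aldosterone (0.2 µg/kg/min) by osmotic minipump for 3 weeks, so no group without that load enters the comparison. Each genotype had 1 array, and the number of mice behind an array is not given in the labels. No difference below has a replicate error, no test between genotypes was possible, and higher and lower describe these 2 arrays only.

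Endothelins are short peptides cut from larger precursors. Furin-like proteases release an inactive intermediate, big endothelin, and the membrane metalloprotease ECE-1 trims it to the active peptide. Endothelin 1 is made mainly by endothelial cells and also by collecting duct cells, mesangial cells and injured epithelia, while endothelins 2 and 3 have narrower sites of synthesis. The ETA receptor on vascular smooth muscle and mesangial cells couples to contraction and growth. The ETB receptor on endothelium releases nitric oxide and clears the peptide, and in the collecting duct it lowers sodium reabsorption.

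Sequences around annotated starts are shown first for the 3 members that read clearly above the detection floor and higher in the double knockout. The reason is that regulation of the system is known to act largely through transcription of Edn1. GATA2, AP-1 and hypoxia-inducible factor are established regulators of that gene. Sequences are RefSeq windows on GRCm38.p6, from 250 bases before to 50 bases after an annotated start, 5′ to 3′ on the strand of the gene. Capitals mark matches on either strand to the GATA motif AGATAA, the AP-1 forms TGACTAA and also TGACTCA, the hypoxia response core ACGTG, the Smad element CAGACA, the CCAAT box, the GC box spelled GGGCGG and the TATA box spelled TATAAA. All 6 members matched the RefSeq table by symbol, with 9 windows. The Edn1 window lies at chr13:42301226-42301525 on the plus strand, the Ednrb window at chr14:103843652-103843951 on the minus strand, and the Ece1 window, the first of 4 for that gene, at chr4:137861987-137862286 on the plus strand.
Edn1: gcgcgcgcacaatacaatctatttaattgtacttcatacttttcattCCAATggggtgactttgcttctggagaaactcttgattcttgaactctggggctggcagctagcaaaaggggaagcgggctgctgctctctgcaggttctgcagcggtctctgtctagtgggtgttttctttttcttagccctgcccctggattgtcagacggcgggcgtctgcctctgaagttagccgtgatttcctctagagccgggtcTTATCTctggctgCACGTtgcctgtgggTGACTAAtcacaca
Ednrb: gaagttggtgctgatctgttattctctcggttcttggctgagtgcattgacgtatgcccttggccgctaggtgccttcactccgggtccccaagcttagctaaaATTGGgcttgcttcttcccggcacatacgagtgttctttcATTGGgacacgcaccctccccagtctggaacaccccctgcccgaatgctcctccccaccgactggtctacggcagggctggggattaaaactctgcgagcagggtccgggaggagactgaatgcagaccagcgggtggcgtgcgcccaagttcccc
Ece1: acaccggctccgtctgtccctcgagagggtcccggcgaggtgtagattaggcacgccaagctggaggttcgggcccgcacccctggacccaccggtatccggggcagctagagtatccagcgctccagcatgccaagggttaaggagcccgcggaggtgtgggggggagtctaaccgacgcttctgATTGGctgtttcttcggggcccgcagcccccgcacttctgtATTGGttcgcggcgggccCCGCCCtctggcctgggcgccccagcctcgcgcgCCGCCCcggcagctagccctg

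The Edn1 window held the GATA letters on the reverse strand at bases 9 to 14, counting the annotated start as base 1, the hypoxia core on the reverse strand at bases 22 to 26 and the TGACTAA form of the AP-1 site at bases 37 to 43. These 3 matches lay after the annotated start and did not overlap. Which start the glomeruli used was not tested. Among all 32851 windows of the same length, 11.2% held AGATAA, 19.6% held ACGTG and 2.35% held TGACTAA. The Edn1 window also held a CCAAT box at -203 to -199, which 37.4% of all windows hold. The AP-1 form TGACTCA, the Smad element and the TATA box letters, held by 5.20%, 21.0% and 13.6% of windows, were in none of the 9 windows of the members. In the Ednrb window the only matches were 2 CCAAT boxes on the reverse strand, at -146 to -142 and -106 to -102. The Ece1 window held 2 CCAAT boxes on the reverse strand and 2 GC boxes (35.7% of all windows hold the latter), and its GC content was 69.3%, against 51.3% for Edn1 and a median of 52.7% over all windows. The second Ece1 window overlaps the first and shares its matches, the third held ACGTG on both strands in overlapping positions, and the fourth held 1 GC box. The windows of Edn2, Edn3 and Ednra held none of these letters. A match describes the letters only. Absence of a motif holds for these windows only, and letters further from an annotated start were not read.

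**Figure D1:**
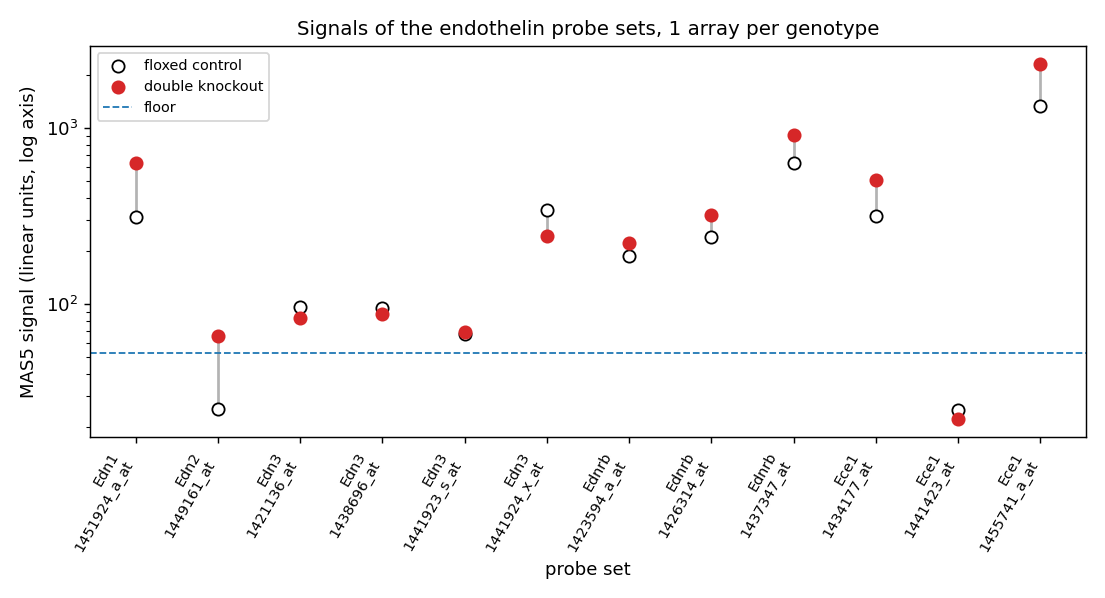
MAS5 signal (linear units, drawn on a log axis) of the 12 endothelin probe sets. Open circles are the floxed control array, red circles the double knockout array, and the dashed line is the detection floor of 52.7. Both Ece1 probe sets above the floor, all 3 of Ednrb and the Edn1 probe set were higher in the double knockout, and 3 of 4 Edn3 probe sets were lower.

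Of the 5 measured endothelin genes, 4 were higher in the double knockout, as were 56.1% of all 13290 measured genes, and 1 was lower, as were 43.9%. Only Edn1 was at least 2-fold higher (1 of 5), where 3.53% of all measured genes were, and no member was at least 2-fold lower, where 2.87% of all measured genes were. Edn1 and Ece1 were at least 1.5-fold higher (2 of 5), against 13.7% of measured genes. The median log2 difference over the 5 genes was 0.53, against 0.07 over all measured genes. The floor of 52.7 had to be reached on at least 1 array for a gene to count as measured, and signals under it were set to it before taking log2. Edn2 reached it only in the double knockout, so it could count only as higher. Of the 4 members above the floor on both arrays, Edn1, Ece1 and Ednrb were higher and Edn3 was lower. Of the 12 probe sets, 10 were above the floor in both arrays, of which 7 were higher and 3 lower in the double knockout. These 10 come from 4 genes, with 1 for Edn1, 4 for Edn3, 3 for Ednrb and 2 for Ece1. They are repeated readings of those genes, and the share over all probe sets was not computed.

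Among the ligands, Edn1, which encodes endothelin 1, read 629 in double knockout against 312 in control glomeruli. That is a log2 difference of 1.01, or 2.02-fold higher, just past the 2-fold rule. The value was at percentile 96.6 of the log2 differences of all measured genes and at percentile 97.6 of the 500 genes nearest in signal, whose robust SD was 0.43. The gene has 1 probe set on the array, so the difference could not be set against a second one. Among the 5418 genes with at least 2 probe sets above the floor, the log2 differences of the 2 brightest were 0.20 apart at the median and 0.60 apart at percentile 90. Edn1 lay 0.01 above the limit of 1 on the log2 scale and fell below it, to between 0.90 and 0.94, when a pseudocount replaced the floor or when the arrays were centred on the median or the 75th percentile, quantile-normalized or freed of a loess trend.

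Edn2, the ligand also known as vasoactive intestinal contractor in the mouse, read 65.4 in double knockout against 25.4 in control glomeruli. Only the double knockout signal reached the floor, so the difference is a lower bound of 1.24-fold higher (0.31 on the log2 scale). Without a floor the same signals gave 1.36 on the log2 scale, and such low signals carry little information on size.

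Edn3, which encodes endothelin 3, the ligand best known for neural crest development, was the member that was lower. Its representative probe set read 87.4 in double knockout against 95.4 in control glomeruli, a log2 difference of -0.13. The others read 83.4 against 95.7 (-0.20), 69.3 against 67.3 (0.04) and 244 against 340 (-0.48). The last of these is an _x_at set and the one before it an _s_at set, suffixes of probe sets that can cross-hybridise. The first 3 differed by less than the robust SD of genes of like signal, which was between 0.54 and 0.57, and the _x_at set by slightly more than its own (0.44). The first 3 were close to the floor, and the direction was not the same in all 4.

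Ednrb encodes the ETB receptor, and its 3 probe sets were all higher in the double knockout. The brightest read 908 in double knockout against 628 in control glomeruli, a log2 difference of 0.53 or 1.44-fold. The second read 318 against 242 (0.40, or 1.32-fold) and the dimmest 221 against 188 (0.23, or 1.17-fold). The brightest was at percentile 83.9 of all measured genes and percentile 84.2 of genes of like signal. The highest and the lowest of these differences lay closer together than the 0.60 given above for probe sets of 1 gene.

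Ece1, the converting enzyme, was higher in both probe sets that reached the floor. Its representative read 2316 in double knockout against 1332 in control glomeruli, a log2 difference of 0.80 or 1.74-fold. The second read 507 against 316, a log2 difference of 0.68 or 1.60-fold. The third read 22.1 and 25.04, below the floor in both arrays, and has no fold. Both probe sets above the floor were high among all measured genes, at percentiles 92.6 and 89.4.

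**Figure D2:**
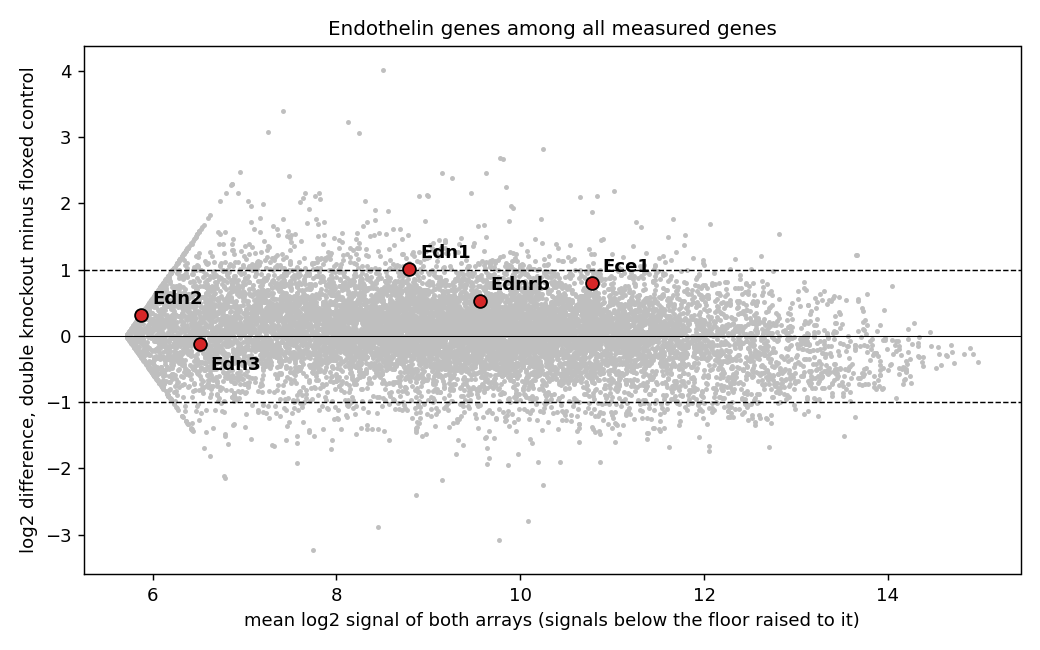
Log2 difference (double knockout minus floxed control) against mean log2 signal of both arrays, for 13290 measured genes (grey) and the 5 endothelin genes (red, named). Dashed lines mark 2-fold; Edn1 sits on the upper line, Ece1 (0.80) and Ednrb (0.53) between it and 0, and Edn2 and Edn3 lie among the dimmest genes.

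The cell content of the samples was read from marker lists. From here on, paired signals give double knockout first and floxed control second. Podocyte markers were far above the floor on both arrays, with Nphs1 (nephrin) at 8373 and 5320 and Wt1 at 6093 and 3915, so the defining markers of the labelled tissue were present. Tubule RNA was present as well: Umod, the loop of Henle marker uromodulin, read 21474 and 23822, and Aqp2, the collecting duct water channel, read 1290 and 2426. All 18 proximal tubule markers, all 8 of the loop and distal tubule and all 11 measured ones of the collecting duct were lower in the double knockout, with median log2 differences of -0.81, -0.54 and -0.91. Their summed signals in the double knockout were 0.618, 0.731 and 0.573 times those of the control. All 19 measured endothelial markers and all 15 podocyte markers were higher, with medians of 0.72 and 0.51, and mesangial and mural markers had a median of 0.72, with 11 of 13 higher. In bulk RNA, fewer cells of a type and less RNA per cell cannot be told apart, and the part of cell content in the endothelin differences was not tested.

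Npr1, which encodes GC-A, read 102 and 167, a log2 difference of -0.71. The brightest of the Mapk14 (p38α) probe sets read 2607 and 2628 (-0.01). Others above the floor read 593 and 659 (-0.15), 327 and 324 (0.01), 157 and 132 (0.25), and 117 and 138 (-0.23). Their directions thus differed, and a further probe set was below the floor in both arrays. Podocytes are one of several glomerular cell types, and whether these probe sets lie within the floxed exons is not given in the sources used here.

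Set beside these lists, the endothelin genes stood as follows. Edn1 was 0.30 above the median of the endothelial markers on the log2 scale, above 18 of the 19, with Cd34 alone higher (1.15). It was 0.51 above the podocyte median and 1.92 above the collecting duct median, higher than each of the 11 collecting duct markers. Ece1 was 0.08 above the endothelial median, with 6 endothelial markers higher and 13 lower. Ednrb was 0.18 below it on the log2 scale (a difference of -0.18), with 16 endothelial markers higher and 3 lower, and 0.03 above the podocyte median. Edn3 lay below all 19 endothelial and all 15 podocyte markers and above all 11 of the collecting duct. These distances do not depend on a shift of whole arrays, but they change with a scaling that varies with signal. Edn1 minus the endothelial median was 0.15 after quantile normalization and 0.14 after removal of a loess trend. In both settings 2 of the 19 endothelial markers were at least 2-fold higher and so above Edn1 (0.90).

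When every difference was recentred on the median of the 53 measured glomerular markers (podocyte, endothelial, mesangial and parietal), which subtracts 0.59, Edn1 read 0.42, Ece1 0.20, Ednrb -0.062, Edn2 -0.28 and Edn3 -0.72. The Edn2 value is a lower bound less 0.59 and gives no direction; without the floor Edn2 read 0.77 after the same recentring, an alternative chosen after seeing the data. The direction for Ednrb turned, to just below 0. Of the marker genes, 11 of 19 endothelial and 5 of 15 podocyte ones stayed above 0, as did 7 of 13 mesangial and mural and 3 of 6 parietal ones. These genes make up the 53 whose median was subtracted, so their counts are partly fixed by the shift itself. No member was then at least 2-fold higher, where 0.542% of measured genes were. Before recentring, macrophage markers were higher in all 13 measured cases (12 after median centring), with a median of 0.88 and 10 of the 13 below Edn1. Of these markers, Itgam and Aif1 had control signals below the floor and could count only as higher. Lymphocyte markers read a median of 0.19 over 3 measured genes.

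**Figure D3:**
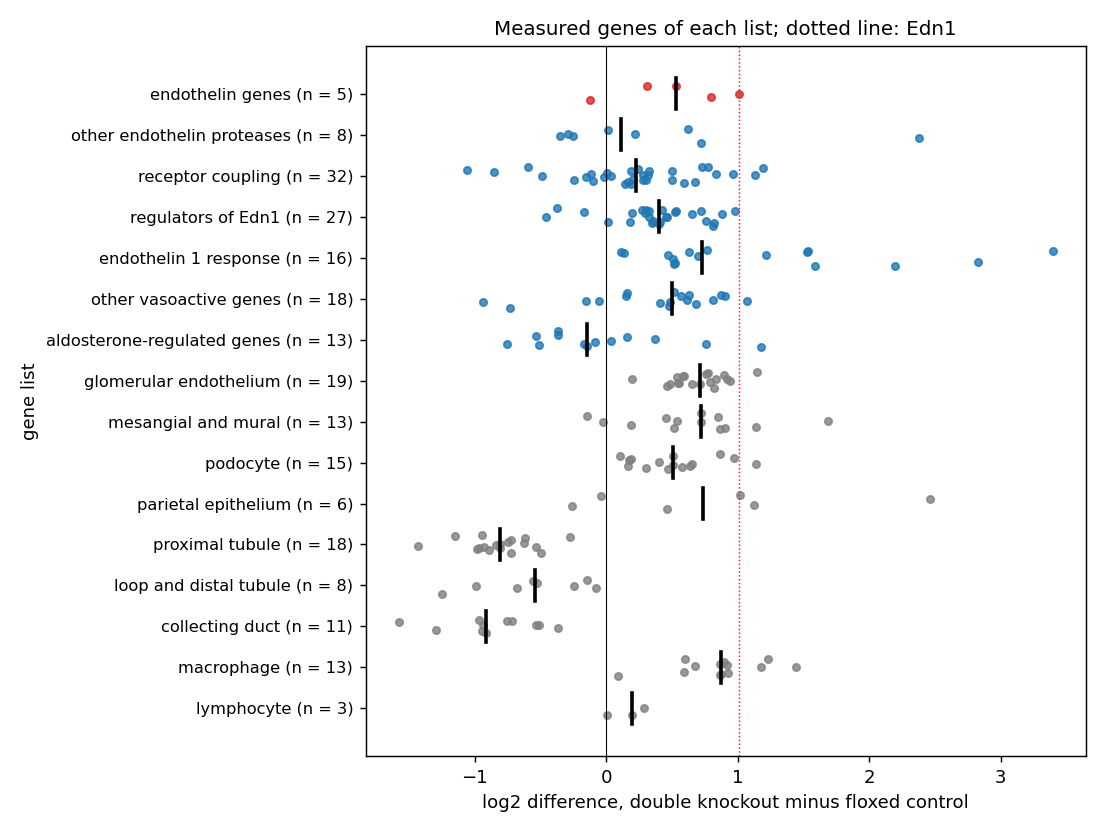
Log2 difference of each measured gene (points) by list, with the list median as a black bar and the number measured in each label; red is the endothelin genes, blue the pathway lists and grey the cell markers. The dotted line is Edn1 (1.01), which lies right of every tubule and collecting duct marker and of 18 of 19 endothelial markers.

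Other proteases that process or degrade endothelins did not share one direction. Of 10, 8 were measured, 5 higher and 3 lower, where 56.1% and 43.9% of all measured genes were. The median of the 8 was 0.12 (recentred, -0.48). Mmp2, gelatinase A, which can cut big endothelin 1, was the 1 past 2-fold, at 1398 and 268 (5.21-fold higher). Pcsk5, a proprotein convertase, read 2122 and 1285 (1.65-fold higher), and Mme, which encodes neprilysin, the peptidase that degrades endothelins and natriuretic peptides, read 4976 and 3236 (1.54-fold higher). Furin, which cuts the precursor, read 1376 and 1181 (1.17-fold higher), and Ece2, the related converting enzyme, read 291 and 347 (1.19-fold lower). Kel, a blood group antigen with endothelin-3-converting activity, was at least 1.28-fold lower. The mast cell chymases Cma1 and Mcpt4 were below the floor in both arrays.

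Genes that act downstream of the receptors had a median of 0.22, with 23 of 32 measured genes higher and 9 lower. Recentred in the same way, the median was -0.37. Of all measured genes, 56.1% were higher and 43.9% lower. Of the 32, 2 were at least 2-fold higher and 1 lower, where 3.53% and 2.87% of all measured genes were. With a pseudocount of 32, 1 was higher and 0 lower (2.84% and 2.60% of all measured genes). The mean over all measured probe sets of a gene also gave 1 and 0 (2.83% and 2.45%). Recentring gave 0 and 4 (0.542% and 16.7%). Itpr3, an inositol trisphosphate receptor that releases calcium, read 1422 and 650 (2.19-fold higher), and Rgs4, which shortens signalling by Gq and Gi proteins, read 229 and 100 (2.29-fold higher). Ptk2b, the calcium-dependent kinase Pyk2, read 327 and 680 (2.08-fold lower). Itpr3 and Itpr2 differed in opposite directions, with Itpr2 at 662 and 1196 (-0.85). The phospholipases Plcb3 and Plcb4, which are activated by Gq, were 1.66-fold and 1.71-fold higher, and Gnaq itself 1.42-fold higher. Arrb1, which encodes β-arrestin 1, was 1.95-fold higher, and Rgs2 1.79-fold. Gnas, Gna12, Gna13 and Rhoa differed by no more than 0.17 in size on the log2 scale, and the channel gene Trpc6 was below the floor in both arrays.

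Transcription factors known to act on Edn1 were mostly higher, with 24 of 27 above 0, beside 56.1% of all measured genes. None was past 2-fold in either direction as reported, where 3.53% of all measured genes were at least 2-fold higher and 2.87% lower. That depended on the setting: 2 were at least 2-fold higher without a floor or with the floor at percentile 25. Of all measured genes, 4.89% and 4.33% then were. With _x_at and _s_at sets left out, 1 was higher (3.52% of all). Recentred, 1 was at least 2-fold lower (16.7% of all). Of the 27, 4 reached the floor on only 1 array, which fixed their direction. The median of the 27 was 0.40 (recentred, -0.19, with 7 of 27 above 0). Fosl2, an AP-1 subunit, read 2261 and 1146 (1.97-fold higher). The flow-responsive factors Klf4 and Klf2 read 3148 and 1709 (1.84-fold) and 4666 and 2651 (1.76-fold). Pparg had a control signal below the floor and was at least 1.77-fold higher. Of other factors that bind motifs like those marked in the Edn1 window, Gata2 read 905 and 722 (1.25-fold higher), the AP-1 subunit gene Jun 6077 and 4768 (1.27-fold) and Hif1a 3532 and 2859 (1.24-fold). Gata4 and Gata6 went the other way, at 40.3 and 72.3 and at 48.7 and 59.3. Their double knockout signals were below the floor, so they were at least 1.37-fold and 1.13-fold lower. On the log2 scale, Fosl2 (0.98) lay above the endothelial median of 0.72 and Gata2 (0.33), Jun (0.35) and Hif1a (0.30) below it. Nr3c2, the mineralocorticoid receptor, read 232 and 141 (1.64-fold higher), and Ppara was 1.30-fold lower.

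Matrix, adhesion and early response genes that endothelin 1 is known to induce in cultured cells were higher in all 16 measured cases, 7 of them at least 2-fold. Of all measured genes, 56.1% were higher. Ccl2, Il6 and Ptgs2, 3 of the 16, had control signals below the floor. They were measured only through the double knockout array and could count only as higher. The median of the 16 was 0.73 (recentred, 0.14, with 10 of 16 above 0 and 3 at least 2-fold higher). Without a floor it was 1.37, with 9 of 16 at least 2-fold higher. With the floor at percentile 25 the list's median was 1.22, with 9 of 17 at least 2-fold higher. Of all measured genes, 3.53% were at least 2-fold higher as reported and 0.542% when recentred. That share was 4.89% without a floor and 4.33% with the floor at percentile 25. With the probe set of middle difference for each gene 14 of 16 were higher, and with _x_at and _s_at sets left out 15 of 16. The list, like the others, was chosen with earlier results of these data known, so its counts are partly fixed by that choice. All its genes have many other inducers, and induction by endothelin 1 was not tested. Ccl2, a monocyte chemoattractant, read 554 and 44.3, at least 10.5-fold higher because the control was below the floor. The adhesion molecule gene Vcam1 read 3241 and 458 (7.08-fold), and Fn1 (fibronectin) 4428 and 968 (4.57-fold). Myc read 307 and 102 (3.00-fold), Col1a1 634 and 219 (2.90-fold), Timp1, an inhibitor of metalloproteinases, 578 and 201 (2.88-fold), and the matricellular gene Ccn2 19669 and 8461 (2.32-fold). Egr1, an immediate early gene, was 1.08-fold higher, and Acta2, smooth muscle actin, 1.43-fold.

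Other vasoactive genes served as the comparison most like the endothelins. Of 18 measured, 14 were higher and 4 lower, where 56.1% and 43.9% of all measured genes were. The median of the 18 was 0.50, beside 0.53 for the endothelin genes. Without a floor the medians were 0.50 and 0.80, and with a pseudocount of 32 they were 0.47 and 0.76. Calcrl, the receptor subunit shared by adrenomedullin and calcitonin gene-related peptide, read 3769 and 1793 (2.10-fold higher). Its ligand gene Adm read 1997 and 1070 (1.87-fold) and its partner Ramp2 3505 and 1918 (1.83-fold). Nos3, the endothelial nitric oxide synthase downstream of ETB, read 725 and 519 (1.40-fold). Avpr1a, a vasopressin receptor, read 129 and 246 (1.91-fold lower). Edn1 was above 17 of the 18 and Calcrl above Edn1, while Ednrb was above 10 of them. Recentred, the list's median was -0.094 and that of the endothelin genes -0.062.

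Edn1 is also a known target of aldosterone in the distal nephron, and the genes of that response were described for that reason. Of 13 measured, 5 were higher and 8 lower, where 56.1% and 43.9% of all measured genes were. The median of the 13 was -0.15 (recentred, -0.74). With the mean over all measured probe sets of a gene, 8 of 13 were higher, the median was 0.014 and none was past 2-fold. Tsc22d3, a glucocorticoid- and aldosterone-induced leucine zipper gene, read 5646 and 2503 (2.26-fold higher). Per1, a clock gene that regulates Edn1, read 1124 and 665 (1.69-fold higher), and Sgk1, a kinase that activates sodium channels, 15433 and 11938 (1.29-fold higher). The sodium channel subunit genes Scnn1a, Scnn1b and Scnn1g were lower, at 541 and 772, 307 and 395, and 649 and 1095. Hsd11b2, the enzyme that protects the mineralocorticoid receptor from glucocorticoids, read 1956 and 2832 (1.45-fold lower). The channel subunits Scnn1b and Scnn1g and Hsd11b2 are also on the collecting duct list, whose measured members were all lower.

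**Figure D4:**
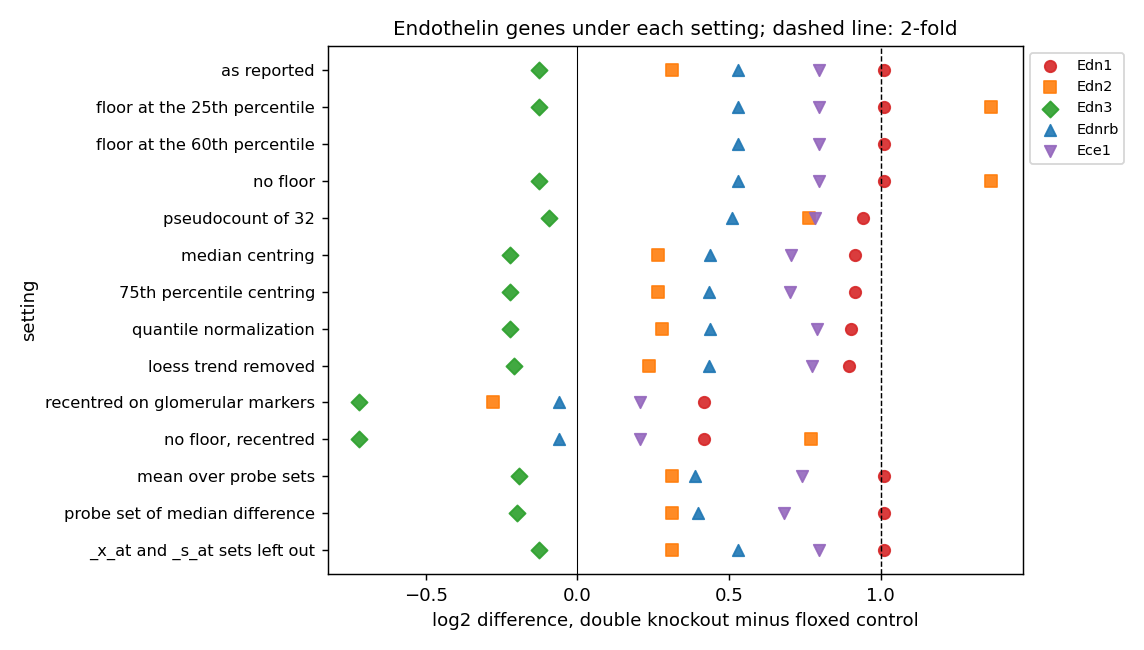
Log2 difference of the 5 endothelin genes under each processing setting (rows), with the 2-fold limit as a dashed line. Edn1 was the highest or second highest member in every row, between 0.42 and 1.01; Edn2 ranged from -0.28 (a lower bound less the recentring shift) to 1.36, and it and Edn3 have no value with the floor at the 60th percentile, where neither was measured.

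The order of the members measured on both arrays was Edn1, Ece1, Ednrb and Edn3 by log2 difference. Edn2 has no fixed place, since its 0.31 is a lower bound: it was first without a floor (1.36) and above Ednrb with a pseudocount of 32 (0.76 against 0.51). The neighbours Edn1 and Ece1 were 1.01 and 0.80, and Ece1 and Ednrb 0.80 and 0.53, each gap being smaller than that between probe sets of 1 gene at percentile 90 of the array (0.60). Edn1 and Edn3 were 1.01 and -0.13. With 2 arrays a pattern across samples is a single difference, so no likeness between genes was computed, and levels of different probe sets were not compared.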

How the data were processed

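The authors deposited a linear intensity for each probe set of each array. MAS5 (its version is not stated there) is named in the submitters' processing notes, and labelling started from 250 ng of total RNA per the labels' protocols. From the values, the mean after trimming 2% at each end was 500.0 on both arrays. Such scaling makes each difference relative to the rest of its sample.

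Names came from the platform annotation in GEO: of 45037 that are no controls, 34945 had 1 symbol, 932 several and 9160 none listed; 34741 matched RefSeq (GRCm38.p6). A gene took its brightest probe set, without _x_at sets where another existed. The floor was the mean over arrays of percentile 40 of the signals. Folds against a signal below it are lower bounds. With 1 array per genotype, the number of arrays sets the precision; no test was run. Genes named from the pathway lists were up to 4 with the largest differences per list and every one past 2-fold there. The rule also took up to 2 per marker list, of which only Cd34 and Aif1 are named above. Umod, Aqp2, Nphs1, Wt1, Furin, Ece2, Cma1, Mcpt4, Itpr2, Plcb3, Plcb4, Gnaq, Gnas, Gna12, Gna13, Rhoa, Trpc6, Rgs2, Gata2, Gata4, Gata6, Jun, Hif1a, Nr3c2, Ppara, Il6, Ptgs2, Egr1, Acta2, Nos3, Itgam, Sgk1, Scnn1a and Scnn1b were added after their values were seen. Members, the 6 other pathway lists, the 9 marker lists and the motifs were chosen with earlier results of these data known. The steps were tested on simulated data (Python 3.11.15, pandas 2.3.3, statsmodels 0.14.6). The simulated differences were larger than that of any member and were set only in genes well above the floor. The simulation thus does not cover differences of the members' size, or signals like those of Edn2 and Edn3.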

Additional observations from a re-analysis of the deposited data

How the results depend on the processing

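Edn1 was past 2-fold as reported (1.01) and fell short of it with a pseudocount of 32 (0.94), after median centring (0.92), 75th percentile centring (0.92), quantile normalization (0.90) or removal of a loess trend on mean signal (0.90), and after recentring on glomerular markers (0.42). Edn2 passed 2-fold with the floor at percentile 25 or with no floor (1.36 in both), because its control signal was below the main floor. Recentring turned Ednrb to -0.062 and the median of the endothelin genes to -0.062. It put Edn2 at -0.28, a lower bound less the shift and so no direction. Recentring without a floor, an alternative chosen after seeing the data, gave 0.77 for Edn2, 0.42 for Edn1, -0.062 for Ednrb, 0.20 for the median and 0 members at least 2-fold higher. That median was 0.80 with the floor at percentile 25 or 60 or with none. The number of members at least 2-fold higher was 1 as reported, 2 with the floor at percentile 25, with no floor or at 1.5-fold, and 0 at 3-fold, with the pseudocount and under each of the 5 other scalings. No member was at least 2-fold lower under any of the 15 alternatives. Ece1 stayed between 0.20 and 0.80 and Edn3 between -0.72 and -0.09. Edn1 minus the endothelial median ranged from 0.14 to 0.33, and Ednrb minus it from -0.33 to -0.15. Over all measured genes, 469 were at least 2-fold higher and 382 lower (55.1% of them higher); that share was 38.6% after median or 75th percentile centring (333 and 530), 44.9% after quantile normalization (356 and 436), 44.9% after loess (353 and 434), 45.0% when the probe set of middle difference stood for a gene (347 and 424) and 3.14% after recentring on glomerular markers (72 and 2220). With the floor at percentile 60 there were 274 and 304, and Edn2 and Edn3 had no value. Ednra gave no value under any setting. No paired analysis was possible because each genotype had 1 array. Leaving out an array was not possible either, and low signal limits what Edn2 and Edn3 can show.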
